A study of Mus musculus with 4 samples.

Results

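Activity-induced genes are the genes that neurons switch on after they fire. The set described here holds 36 of the 33696 genes in the deposited matrices, 28 rapid members and 8 delayed members, chosen by name as known activity-induced genes and matched by gene symbol. The nuclei came from microdissected cortex of wild-type C57BL/6JRj female mice of about 12 weeks, either pregnant at E13.5, dated by timed mating, or non-pregnant. Each group has 2 libraries, called biological replicates in the study's design, which does not say how many mice each holds. They were made by single-nucleus RNA sequencing, a droplet assay that counts unique molecular identifiers (UMIs) at the 3' end of transcripts, with about 8000 nuclei targeted per library. Actinomycin D, an inhibitor of transcription, was in the isolation medium at 5 ng/mL in all 4 preparations, and nuclei were purified over 30% iodixanol. The sources used here do not give the area of cortex. The question addressed is how members stood in the pregnant mice, with the libraries kept apart. Within each group, values are given for library 1 and then library 2, as counts per 1000000 UMIs (CPM) of the cells named.

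When a neuron fires, calcium entering through synaptic receptors and channels activates kinases, and these act on factors already in the nucleus, CREB, SRF and MEF2. Rapid members, also called immediate early genes, are transcribed within minutes from those factors alone, without new protein. Many encode transcription factors, and others encode brakes on the same signals. Delayed members follow, partly through the rapid transcription factors, and many encode proteins secreted by the neuron or placed at its synapses. In cortex the rapid genes are widely used as marks of recently active neurons.

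Promoter sequences are shown because CREB binds DNA at TGACG, the core of its full palindrome TGACGTCA, and these members are known targets of such signals. RefSeq promoters on the GRCm38.p6 build, from 250 bases before to 50 bases after each start, were found for 28 of the 36 members. The counts were made on another build, GRCm39, so the coordinates below belong to the RefSeq sequences alone. The 5 promoters printed are those of 3 rapid members with TGACG, 1 delayed member with the full palindrome, and 1 delayed member with no TGACG. Each is given 5' to 3' on the gene's own strand, in lower case, with capitals at TGACG read on either strand, which takes in the palindrome where the 2 matches overlap. Fos lies at chr12:85473640-85473939 on the plus strand, Npas4 at chr19:4989922-4990221 on the minus strand, Nr4a1 at chr15:101266596-101266895 on the plus strand, Plk2 at chr13:110394794-110395093 on the plus strand and Inhba at chr13:16011601-16011900 on the plus strand.
Fos: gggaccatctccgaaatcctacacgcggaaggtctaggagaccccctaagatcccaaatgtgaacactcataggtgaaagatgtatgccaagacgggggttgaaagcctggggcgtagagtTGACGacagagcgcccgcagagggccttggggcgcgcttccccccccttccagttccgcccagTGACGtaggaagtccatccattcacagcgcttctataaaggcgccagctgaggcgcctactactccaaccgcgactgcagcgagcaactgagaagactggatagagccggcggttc
Npas4: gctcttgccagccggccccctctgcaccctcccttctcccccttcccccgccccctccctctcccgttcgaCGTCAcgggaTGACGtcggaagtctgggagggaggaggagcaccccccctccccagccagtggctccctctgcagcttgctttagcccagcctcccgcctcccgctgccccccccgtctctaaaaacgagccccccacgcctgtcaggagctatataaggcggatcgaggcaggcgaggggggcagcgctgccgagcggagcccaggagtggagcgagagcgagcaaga
Nr4a1: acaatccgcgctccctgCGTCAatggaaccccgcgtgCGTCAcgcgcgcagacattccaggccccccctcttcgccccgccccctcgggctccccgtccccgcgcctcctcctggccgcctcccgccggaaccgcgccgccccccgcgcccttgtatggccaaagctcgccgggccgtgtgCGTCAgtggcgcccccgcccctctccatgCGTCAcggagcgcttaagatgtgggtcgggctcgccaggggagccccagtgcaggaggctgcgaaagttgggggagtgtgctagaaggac
Plk2: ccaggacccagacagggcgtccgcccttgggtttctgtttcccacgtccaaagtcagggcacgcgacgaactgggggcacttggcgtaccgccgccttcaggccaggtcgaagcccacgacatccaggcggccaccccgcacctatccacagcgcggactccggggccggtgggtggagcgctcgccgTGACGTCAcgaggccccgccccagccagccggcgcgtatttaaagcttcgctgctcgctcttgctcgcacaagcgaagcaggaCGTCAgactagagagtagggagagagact
Inhba: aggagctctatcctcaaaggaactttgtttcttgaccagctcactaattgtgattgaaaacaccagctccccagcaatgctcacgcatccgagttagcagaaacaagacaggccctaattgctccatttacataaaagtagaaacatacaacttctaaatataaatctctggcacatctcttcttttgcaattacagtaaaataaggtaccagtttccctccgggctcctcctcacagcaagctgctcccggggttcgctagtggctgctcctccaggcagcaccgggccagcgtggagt
TGACG occurred 2 times in the Fos window, 2 times in that of Npas4, 4 times in that of Nr4a1 and 3 times in that of Plk2. Across the matched members, 21 of 28 held TGACG on either strand in at least 1 of their windows, which was 75.0%, against 23.0% of all 27025 genes in the RefSeq table. By class, 16 of 22 rapid members and 5 of 6 delayed members held it. The palindrome TGACGTCA was in 5 of 28 members, Scg2, Btg2, Plk2, Maff and Dusp1, against 2.03% of all genes. The CArG box, the motif of SRF, was in 2 of 28, Egr2 and Dusp5, against 1.81% of all genes. A match says only that these letters are in the window. Sites outside the window were not searched, and Egr1, Egr3, Arc, Ier2, Sik1, Dusp4, Nptx2 and Vgf had no promoter to search.

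The 4 libraries held 6357 to 6932 barcodes and 97875766 to 116860425 UMIs each. After filters on genes, mitochondrial reads and doublets, 5949 to 6503 nuclei per library were kept, of which 3997 to 4485 were excitatory neurons. Their median depth was 16443 and 15696 UMIs in the pregnant libraries, and 14619 and 19879 UMIs in the non-pregnant libraries. Cell type names mean that a cluster resembled the type by its markers, and clusters were built without the 36 members. Between 20 and 31 cell barcodes were shared by any pair of libraries. A set of clusters lay almost wholly in the pregnant libraries and held 12.2 and 11.0% of their nuclei, against 0.231 and 0% in the non-pregnant libraries. Free RNA was not subtracted. With 2 libraries per group, a p-value weighs the group difference against the spread between libraries within groups, estimated with information from all genes.

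In excitatory neurons, the pregnant and non-pregnant libraries overlapped for every member except Jun and Inhba. The 28 rapid members summed to 455 and 493 CPM in the pregnant libraries, against 638 and 124 CPM in the non-pregnant libraries. The 8 delayed members summed to 677 and 687 CPM in the pregnant libraries, against 970 and 498 CPM in the non-pregnant libraries. Both pregnant libraries thus lay between the non-pregnant ones, non-pregnant library 1 being the highest of the 4 and non-pregnant library 2 the lowest. Member by member, that order held for 26 of 36 genes (20 rapid and 6 delayed), against 7.72% of all genes measured in the same cells. Non-pregnant library 2 was the lowest library for 25 of 28 rapid and 6 of 8 delayed members, against 28.6% of genes, and non-pregnant library 1 the highest for 20 rapid and all 8 delayed members, against 21.5% of genes.

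The AP-1 subunits Fos, Fosb, Fosl2, Jun and Junb pair with each other to bind DNA, and Fos is the classic mark of a recently active neuron. Fos stood at 16.9 and 17.03 CPM in pregnant excitatory neurons, against 24.8 and 0.713 CPM in non-pregnant ones. The pregnant libraries were almost equal for Fos, and the non-pregnant ones enclosed them. Fosb, a relative of Fos whose products last longer, had 5.21 and 5.93 CPM in pregnant libraries, against 9.87 and 0.396 CPM in non-pregnant libraries. Fosl2 had 6.64 and 9.70 CPM in pregnant libraries, against 10.2 and 1.13 CPM in non-pregnant libraries. Both showed the Fos order, with non-pregnant library 2 lowest by far. Junb was at 46.2 and 35.4 CPM in pregnant libraries, against 42.0 and 5.41 CPM in non-pregnant libraries, so that its highest value was in pregnant library 1. Jun was the only member with both pregnant libraries above both non-pregnant ones, at 8.08 and 7.77 CPM, against 7.10 and 3.85 CPM. Of all genes, 24.7% had that arrangement.

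The EGR zinc finger factors bind GC-rich promoters, and Egr1 is used beside Fos as an activity mark. Egr1 had 41.5 and 44.3 CPM in pregnant excitatory neurons, against 52.3 and 4.51 CPM in non-pregnant ones. Egr2 had 1.89 and 2.01 CPM in pregnant libraries, against 4.22 and 0.0226 CPM in non-pregnant libraries. The last of these is 2 UMIs, against 305 UMIs in non-pregnant library 1, a ratio of 187 whose exact binomial 95% interval runs from 51.2 to 1548 and covers counting error only. Egr3 had 24.1 and 24.1 CPM in pregnant libraries, against 42.1 and 6.33 CPM in non-pregnant libraries. Egr4 had 12.3 and 12.1 CPM in pregnant libraries, against 20.6 and 1.38 CPM in non-pregnant libraries. All 4 EGR genes placed the pregnant pair close together, inside the range of the non-pregnant pair.

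Arc encodes a protein of active synapses that helps withdraw glutamate receptors, and its values were 36.1 and 36.1 CPM in pregnant excitatory neurons, against 61.1 and 3.74 CPM in non-pregnant ones. As group means that is 36.1 ± 0.00977 CPM in pregnant mice and 32.4 ± 40.6 CPM in non-pregnant mice (SD, n = 2 libraries each). Npas4, a neuron-specific transcription factor switched on by calcium, had 23.8 and 22.5 CPM in pregnant libraries, against 34.8 and 4.00 CPM in non-pregnant libraries. Neither gene separated the groups, and in both the pregnant libraries differed from each other by far less than the non-pregnant ones. Nr4a1, Nr4a2 and Nr4a3 are orphan nuclear receptors that act as transcription factors. Nr4a1 had 93.7 and 104 CPM in pregnant libraries, against 126 and 49.4 CPM in non-pregnant libraries. Nr4a3 had 34.0 and 44.1 CPM in pregnant libraries, against 47.6 and 5.12 CPM in non-pregnant libraries. Nr4a2, which also marks deep and claustral neurons, had 11.8 and 19.7 CPM in pregnant libraries, against 17.6 and 4.30 CPM in non-pregnant libraries. The pregnant libraries differed from each other more for Nr4a2 than for Nr4a1, with a ratio of library 1 over library 2 of 0.600 (95% interval 0.552 to 0.652).

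Several rapid members act as brakes on the signal. The dual-specificity phosphatases Dusp1, Dusp4, Dusp5 and Dusp6 switch off MAP kinases. Dusp1 had 9.76 and 11.7 CPM in pregnant excitatory neurons, against 14.8 and 2.46 CPM in non-pregnant ones. Dusp6 had 17.4 and 18.4 CPM in pregnant libraries, against 23.2 and 4.22 CPM in non-pregnant libraries. Dusp5 had 7.33 and 9.07 CPM in pregnant libraries, against 10.6 and 2.57 CPM in non-pregnant libraries. Dusp4 followed the same order, with 3.42 and 3.70 CPM in pregnant libraries, against 4.33 and 1.52 CPM in non-pregnant libraries. Sik1, a kinase that restrains the coactivators of CREB, had 3.02 and 5.13 CPM in pregnant libraries, against 7.82 and 0.690 CPM in non-pregnant libraries. Btg2, an antiproliferative cofactor, had 22.2 and 28.3 CPM in pregnant libraries, against 36.4 and 4.72 CPM in non-pregnant libraries. In each of these 6 genes the groups overlapped, with the pregnant libraries inside.

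The remaining rapid members that were well counted behaved alike or differed less. Ier2, a small nuclear response protein, had 6.06 and 6.11 CPM in pregnant libraries, against 8.49 and 0.758 CPM in non-pregnant libraries. Its relative Ier5 differed little, with 15.7 and 15.4 CPM in pregnant libraries, against 18.4 and 11.4 CPM in non-pregnant libraries. Gadd45b and Gadd45g encode growth arrest proteins linked to DNA demethylation. Gadd45b had 3.66 and 5.78 CPM in pregnant libraries, against 5.68 and 2.73 CPM in non-pregnant libraries. Gadd45g had 2.75 and 3.77 CPM in pregnant libraries, against 5.51 and 1.18 CPM in non-pregnant libraries. Both had their lowest value in non-pregnant library 2.

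The stress factor Atf3, the small Maf protein gene Maff and the Krüppel-like factors Klf2 and Klf4 stayed under 1 CPM in excitatory neurons of every library. Atf3 had 4 and 14 UMIs in pregnant libraries, against 10 and 9 UMIs in non-pregnant libraries. Maff had 0.429 and 0.167 CPM in pregnant libraries, against 0.263 and 0.158 CPM in non-pregnant libraries. Klf2 had 0.265 and 0.445 CPM in pregnant libraries, against 0.319 and 0.521 CPM in non-pregnant libraries. Klf4 had 0.644 and 0.806 CPM in pregnant libraries, against 0.595 and 0.758 CPM in non-pregnant libraries. These 2 genes and Atf3 were the rapid members whose lowest library was not non-pregnant library 2. Atf3 was lowest in pregnant library 1, and Klf2 in pregnant library 1 too.

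Among the delayed members, Homer1 encodes a scaffold of glutamate receptors whose short form is the activity-induced isoform, and the counts do not separate the forms. Homer1 had 489 and 456 CPM in pregnant excitatory neurons, against 689 and 348 CPM in non-pregnant ones. Bdnf, the neurotrophin gene, had 53.0 and 62.6 CPM in pregnant libraries, against 73.1 and 24.1 CPM in non-pregnant libraries. Both genes thus repeated the order of the rapid ones, over a narrower range. Nptx2, a secreted pentraxin that gathers AMPA receptors, had 4.53 and 5.86 CPM in pregnant libraries, against 9.87 and 2.81 CPM in non-pregnant libraries. The neuropeptide precursor Vgf had 15.02 and 15.7 CPM in pregnant libraries, against 17.9 and 8.58 CPM in non-pregnant libraries. Scg2, secretogranin II, had 18.3 and 24.8 CPM in pregnant libraries, against 29.6 and 12.1 CPM in non-pregnant libraries. Ptgs2, the inducible cyclooxygenase, lay in the same order, with 3.77 and 5.60 CPM in pregnant libraries, against 8.53 and 2.31 CPM in non-pregnant libraries.

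Plk2 and Inhba were the delayed members that departed from that order. Plk2, a kinase that weakens synapses after strong activity, had 77.7 and 99.8 CPM in pregnant libraries, against 118 and 79.6 CPM in non-pregnant libraries. Inhba, the activin subunit gene, had 15.5 and 16.9 CPM in pregnant libraries, against 24.0 and 20.4 CPM in non-pregnant libraries. For Inhba alone among the 36, both pregnant libraries were below both non-pregnant ones, an arrangement that 16.6% of all genes had. As group means that is 16.2 ± 0.928 CPM in pregnant mice and 22.2 ± 2.54 CPM in non-pregnant mice (SD, n = 2 libraries each).

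**Figure D1:**
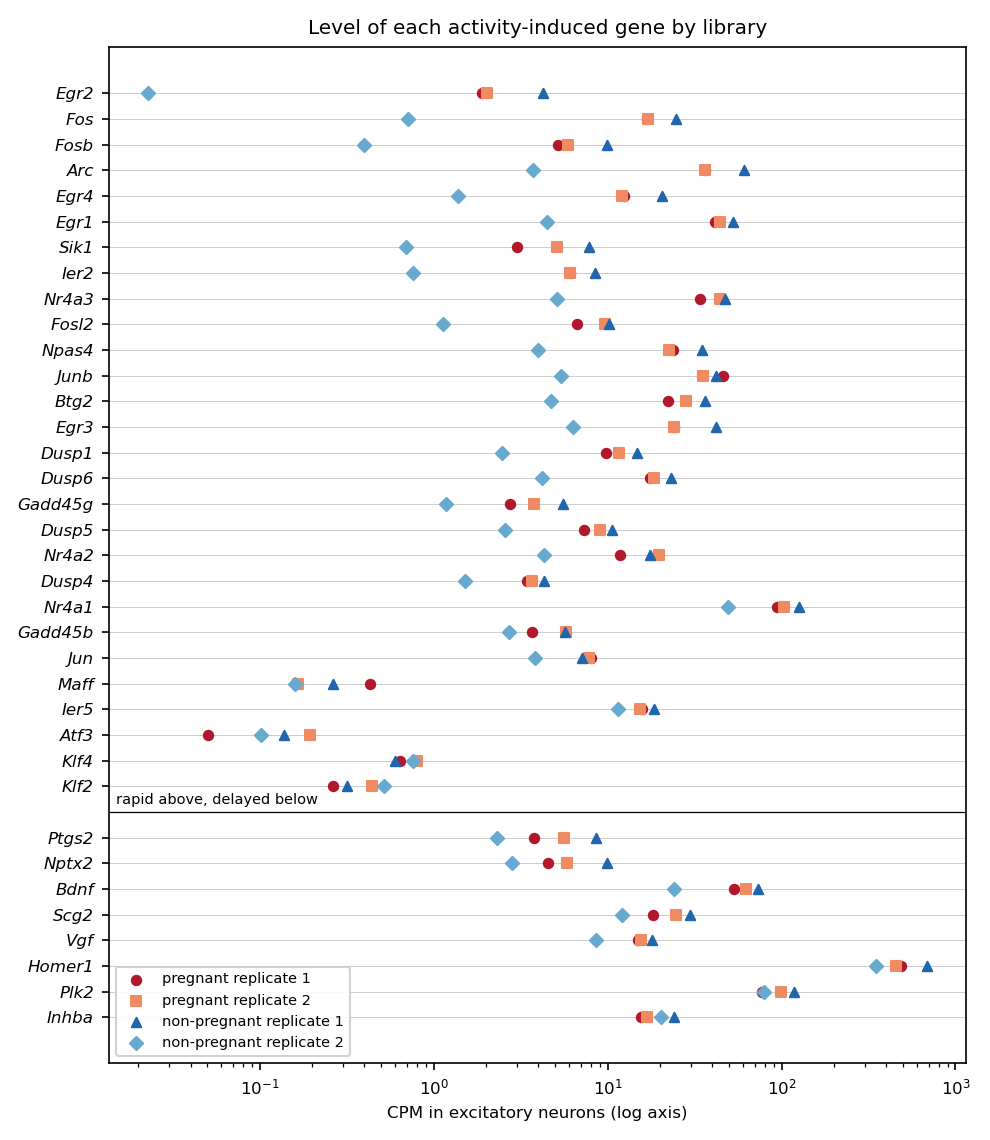
Level of each of the 36 members in excitatory neurons, in CPM on a log axis, with 1 point per library; rapid members stand above delayed members and each class is ordered by the ratio between the non-pregnant libraries. For most members the points of the pregnant libraries lie close together and between those of non-pregnant library 1 and non-pregnant library 2, as for Fos at 16.9 and 17.03 CPM against 24.8 and 0.713 CPM.

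Rapid members differed more between the non-pregnant libraries than delayed members did, and by their medians both classes differed less between the pregnant libraries. Between the non-pregnant libraries, the ratio of library 1 over library 2 in excitatory neurons had a median of 6.66 over rapid members and 2.27 over delayed members, against 0.996 over all genes. Among the members with enough UMIs, 22 of 27 rapid and 5 of 8 delayed ones were at least 2-fold higher in non-pregnant library 1, against 1.45% of the 19313 genes measured, and none was 2-fold lower, against 1.3% of genes. The ratio was 34.7 for Fos (exact binomial 95% interval 27.0 to 45.4), 16.4 for Arc (14.6 to 18.3) and 1.98 for Homer1 (1.95 to 2.01). Between the pregnant libraries, the median ratio of library 1 over library 2 was 0.926 over rapid members and 0.813 over delayed members, against 0.938 over all genes. There, 1 of 27 rapid members, Maff at 2.57 (1.30 to 5.46), and 0 of 8 delayed members were at least 2-fold higher in library 1, against 0.463% of genes. These are ratios between 2 libraries, with no replicate behind them, and their intervals cover counting error only.

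Ranked by that ratio among the 13995 genes with at least 200 UMIs in excitatory neurons, 23 of the top 50 genes were members. Egr2 ranked 1, Fos 3, Fosb 4 and Arc 6, while Plk2 ranked 427 and Inhba 2067. Of the 50 genes with the highest ratio of pregnant library 1 over pregnant library 2, 0 were members. The highest-ranked member there was Junb at 128, followed by Homer1 at 1323. At the other end of that ranking, where pregnant library 1 was lower, Sik1 ranked 13848 and Nr4a2 13842 of 13872 genes. Gadd45b at 13818, Ptgs2 at 13763, Fosl2 at 13742, Gadd45g at 13583 and Scg2 at 13551 also lay near that end.

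**Figure D2:**
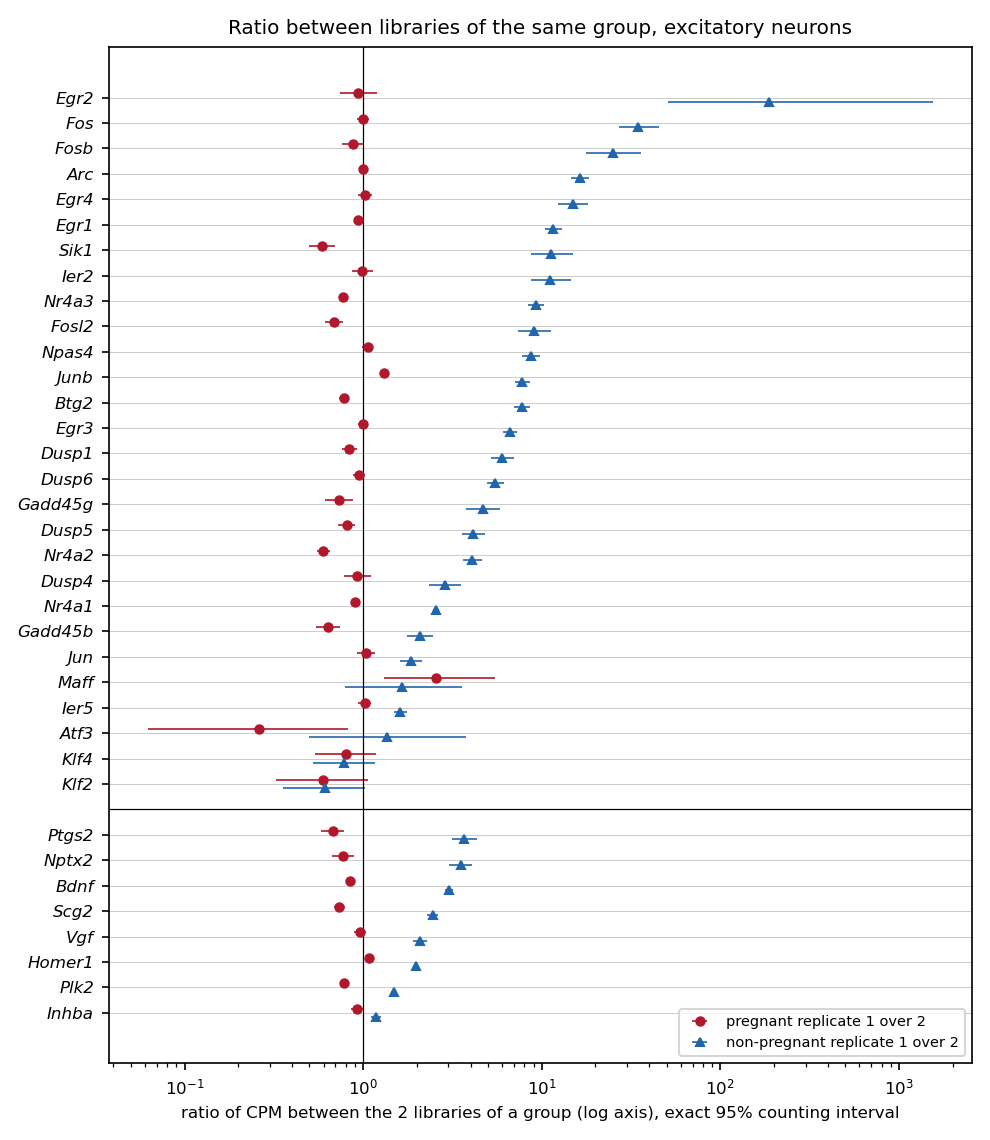
Ratio of library 1 over library 2 for each member in excitatory neurons, on a log axis, between the pregnant libraries and between the non-pregnant libraries, with exact 95% intervals for counting error. The pregnant ratios run from 0.260 for Atf3 to 2.57 for Maff, both with few UMIs, while those of the non-pregnant libraries reach 34.7 for Fos and 187 for Egr2.

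Set against each other by edgeR's quasi-likelihood test, pregnant and non-pregnant mice did not differ in any member past the threshold of 0.05 on the Benjamini-Hochberg adjusted p. In the sum over all nuclei 0 of 36 members passed, against 1.19% of all genes tested. In excitatory neurons 0 of 36 passed, against 1.93% of genes, and in inhibitory neurons 0 of 30, against 0.209% of genes. At an unadjusted p below 0.05, edgeR had 3 members in all nuclei (Jun, Klf2 and Inhba), 1 in excitatory neurons and 1 in inhibitory neurons, the last 2 being Inhba, while 12.9, 13.8 and 7.52% of all genes reached that p in the same order of sums. DESeq2 called 2 members in all nuclei, Klf2 higher and Inhba lower, against 2.64% of genes, 1 in excitatory neurons, Inhba, against 3.42% of genes, and 0 in inhibitory neurons, against 0.135% of genes. In excitatory neurons pregnant over non-pregnant, the median log2 fold change was 0.26 over rapid members and −0.16 over delayed members, against 0.0050 over all genes. By sign, 25 members were higher and 11 lower in pregnant mice there.

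The standard errors show how little the contrast resolved for the strongly induced genes. The log2 fold change of Fos in excitatory neurons was 0.41 with a standard error of 1.91 (edgeR adjusted p = 0.969). For Arc it was 0.14 with a standard error of 1.67 (edgeR adjusted p = 0.987), and for Egr1 0.58 with a standard error of 1.51 (edgeR adjusted p = 0.941). These errors leave room for differences of several fold in either direction, so that a missed threshold does not show equal levels. Npas4 had a log2 fold change of 0.24 ± 1.36 (SE), Junb 0.78 ± 1.32 and Nr4a1 0.15 ± 0.632. Of the delayed members, Homer1 stood at −0.15 ± 0.434, Bdnf at 0.23 ± 0.747, Nptx2 at −0.30 ± 0.809 and Vgf at 0.20 ± 0.435, with errors that overlap those of Nr4a1.

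Inhba and Klf2 came closest to a call. The log2 fold change of Inhba in excitatory neurons was −0.47 with a standard error of 0.101 (edgeR adjusted p = 0.0540), and in inhibitory neurons −0.69 with a standard error of 0.201 (edgeR adjusted p = 0.247). Inhibitory neurons had 6.04 and 8.10 CPM of Inhba in pregnant libraries, against 12.8 and 10.0 CPM in non-pregnant libraries. By DESeq2 the excitatory adjusted p was 0.00952. With an equal number of nuclei taken per cluster the Inhba value was −0.19 (edgeR adjusted p = 0.550), and without the clusters held almost wholly by pregnant libraries it was −0.34 (edgeR adjusted p = 0.196). L2/3 IT nuclei, where Inhba was higher than in the excitatory sum, were fewer in pregnant libraries. They were 936 of 4164 and 1210 of 3997 excitatory nuclei there, against 1818 of 4485 and 1774 of 4081 in non-pregnant libraries. Their part in the Inhba difference was not tested. Klf2, a factor known from endothelium, was higher in pregnant mice in the sum over all nuclei, with a log2 fold change of 0.95 and a standard error of 0.189 (edgeR adjusted p = 0.0504, DESeq2 adjusted p = 0.0479). Endothelial nuclei made up 0.819 and 0.598% of pregnant libraries, against 0.261 and 0.353% of non-pregnant libraries, and with equal nuclei per cluster the Klf2 value was 0.14 (edgeR adjusted p = 0.946). In such a sum, more cells of a type and more RNA per cell cannot be told apart.

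What the contrast gave depended on which non-pregnant library it kept. Without non-pregnant library 1, 30 of 36 members rose in excitatory neurons, against 7.07% of genes, and 1 fell, Inhba, against 4.31% of genes. Arc then had a log2 fold change of 3.25 (SE 0.115, edgeR adjusted p = 2.01e-168), Fos one of 4.55 and Homer1 one of 0.42 (edgeR adjusted p = 0.0214). The 5 members not called were Atf3, Klf2, Klf4, Maff and Plk2. Without non-pregnant library 2, 0 of 36 rose, against 4% of genes, and 24 fell, against 4.07% of genes. Arc then stood at −0.78, Fos at −0.56, Npas4 at −0.61 and Nptx2 at −0.95, while Junb at −0.057, Jun and Vgf were among the 12 not called. In both fits the lone non-pregnant library is assumed to vary like the pregnant ones. Without pregnant library 1, 0 members were called in all nuclei, excitatory or inhibitory neurons, against 0, 0.0101 and 0.404% of genes, and without pregnant library 2 again 0, against 0.00932, 0.005 and 1.2%. For most rapid members the sign of the contrast thus depended on which non-pregnant library remained, and Inhba was the only member that fell in both fits, at −0.36 (edgeR adjusted p = 0.00501) without non-pregnant library 1 and at −0.59 (edgeR adjusted p = 1.40e-07) without non-pregnant library 2.

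**Figure D3:**
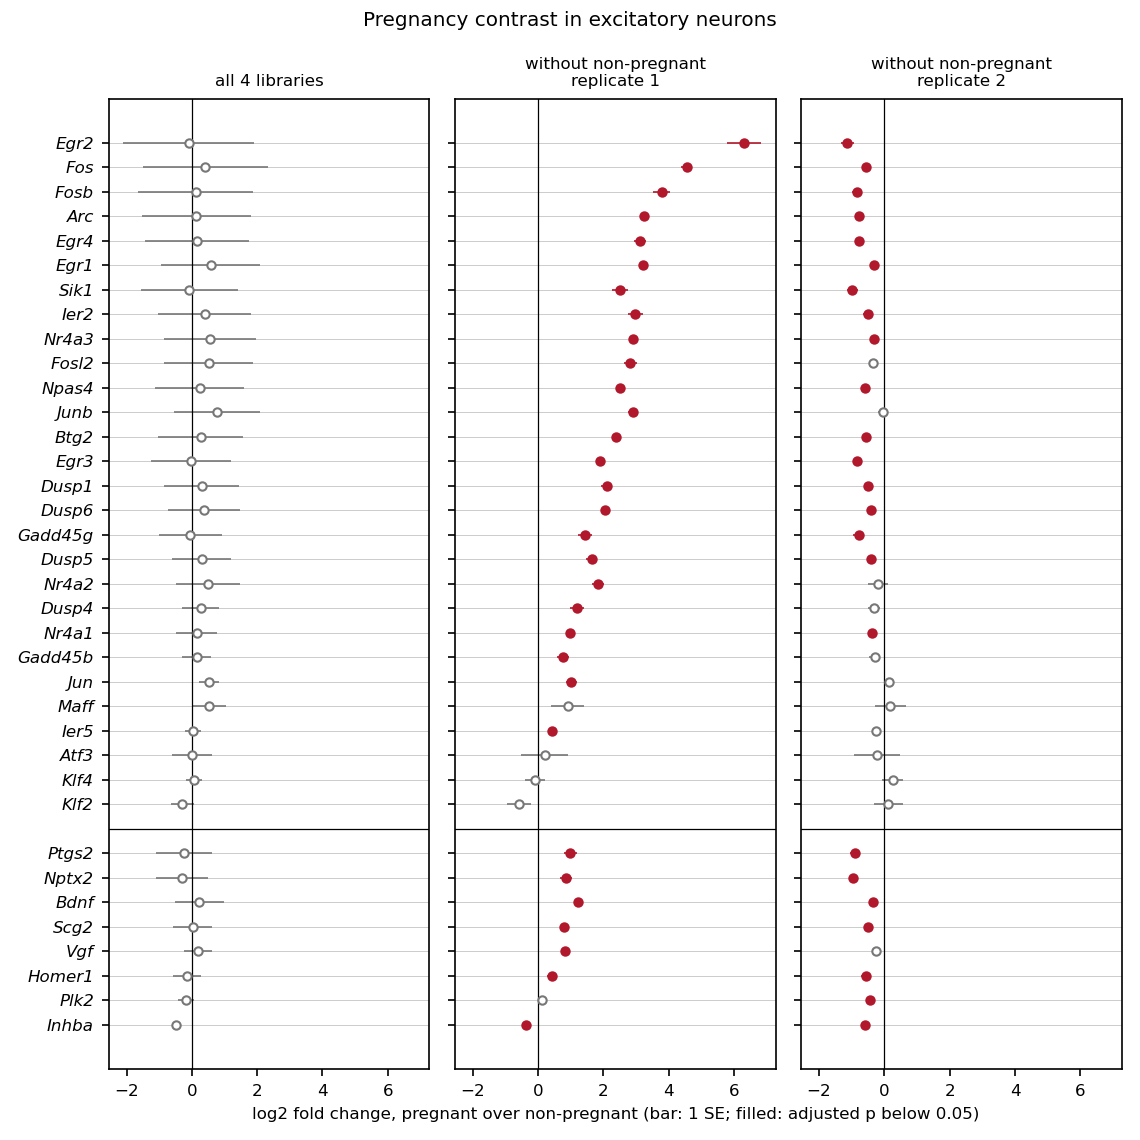
Log2 fold change of each member in excitatory neurons, pregnant over non-pregnant, with bars of 1 standard error, in the fit of all 4 libraries, without non-pregnant library 1 and without non-pregnant library 2; filled points have an edgeR adjusted p below 0.05. No point is filled with all 4 libraries, 31 are filled without non-pregnant library 1, 30 above 0 and Inhba below, and 24 are filled without non-pregnant library 2, all below 0.

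The order of the libraries was not limited to a layer or class. Summed over the 28 rapid members, non-pregnant library 2 was the lowest of the 4 in 15 of 15 cell types, and non-pregnant library 1 the highest in 13, the exceptions being astrocytes and oligodendrocyte precursors (OPC). L6 corticothalamic (CT) neurons, which project to thalamus, had 601 and 630 CPM of rapid members in pregnant libraries, against 797 and 135 CPM in non-pregnant libraries. L2/3 intratelencephalic (IT) neurons had 487 and 493 CPM in pregnant libraries, against 633 and 115 CPM in non-pregnant libraries. The largest cluster of L2/3 IT nuclei was number 4 in pregnant libraries, with 38.5% of them, and number 0 in non-pregnant ones, with 48.6%, and that of L4/5 IT nuclei was number 1 in pregnant libraries, with 47.8%, and number 6 in non-pregnant ones, with 34.7%. Sums over these types compare partly different nuclei. L5/6 near-projecting (NP) neurons spread least among excitatory types, with 299 and 346 CPM in pregnant libraries, against 360 and 136 CPM in non-pregnant libraries. With the clusters held almost wholly by pregnant libraries set aside, the excitatory sum was 470 and 501 CPM in pregnant libraries, against 637 and 124 CPM in non-pregnant libraries.

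Inhibitory neurons repeated the pattern at lower summed levels. Their rapid members summed to 167 and 181 CPM in pregnant libraries, against 234 and 56.0 CPM in non-pregnant libraries. Vip neurons, which mostly inhibit other interneurons, had 384 and 357 CPM in pregnant libraries, against 459 and 79.7 CPM in non-pregnant libraries. Nr4a1 in Vip neurons was at 98.7 and 74.6 CPM in pregnant libraries, against 105 and 23.4 CPM in non-pregnant libraries. Pvalb neurons, the fast-spiking class, had a rapid sum of 125 and 130 CPM in pregnant libraries, against 188 and 49.0 CPM in non-pregnant libraries. Across inhibitory neurons 19 of 23 rapid members and 2 of 7 delayed members with enough UMIs were at least 2-fold higher in non-pregnant library 1 than in library 2, against 1.38% of genes.

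Outside neurons the gap narrowed. In non-neuronal nuclei the rapid sum was 252 and 284 CPM in pregnant libraries, against 281 and 145 CPM in non-pregnant libraries, with 11 of 20 rapid members at least 2-fold higher in non-pregnant library 1 than in library 2, against 1.6% of genes. Astrocytes had 144 and 177 CPM in pregnant libraries, against 176 and 119 CPM in non-pregnant libraries. Oligodendrocytes had 180 and 192 CPM in pregnant libraries, against 204 and 94.7 CPM in non-pregnant libraries. Free RNA from neurons can reach every droplet, and its part in these glial sums was not tested. Delayed members were lowest in non-pregnant library 2 in 14 of 15 types, the exception being astrocytes.

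**Figure D4:**
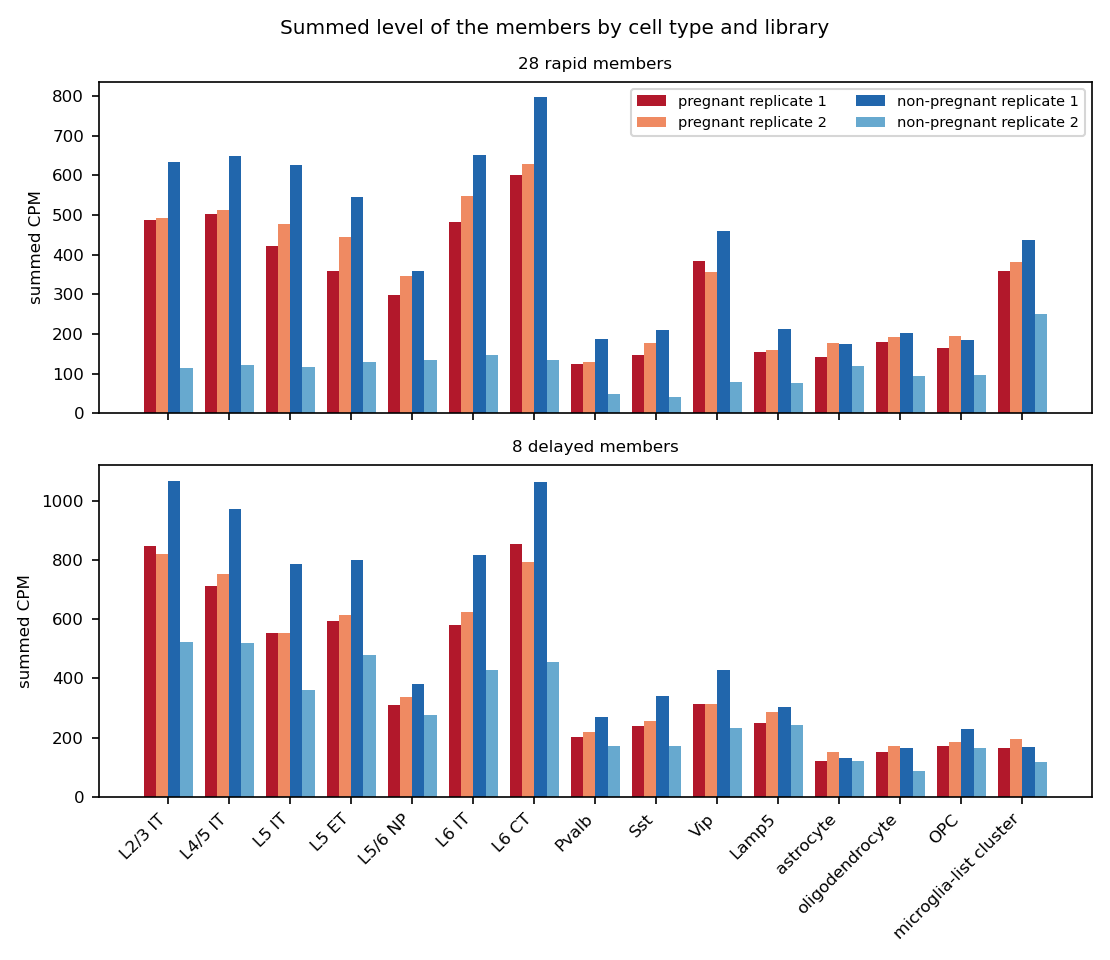
Summed level of the 28 rapid members (top) and the 8 delayed members (bottom) in each of 15 cell types, in CPM, with 1 bar per library, pregnant libraries left of non-pregnant libraries. Non-pregnant library 2 has the lowest rapid bar in every type, at 135 CPM against 797 CPM in the other non-pregnant library in L6 CT neurons, the widest ratio of the 15, and at 119 CPM against 176 CPM in astrocytes, the narrowest.

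Within single cell types the pregnant contrast called 0 of 321 member tests by edgeR, against 0.694% of all gene tests, with 18 at an unadjusted p below 0.05, against 8.75% of gene tests. DESeq2 called 0, against 0.353%, with 6 at an unadjusted p below 0.05, against 2.91%. Without non-pregnant library 1 edgeR called 168 member tests over the types, against 3.43% of gene tests, and without non-pregnant library 2 it called 56, against 1.66%. Nearest to a call was Dusp6 in astrocytes, with 14.2 and 15.5 CPM in pregnant libraries, against 30.5 and 36.0 CPM in non-pregnant libraries and a log2 fold change of −1.22 (edgeR adjusted p = 0.0556). Egr3 in L5/6 NP neurons had 11.1 and 10.7 CPM in pregnant libraries, against 4.79 and 1.01 CPM in non-pregnant libraries and a log2 fold change of 1.81 (edgeR adjusted p = 0.0845). In both the groups did not overlap, yet neither passed. The L5/6 NP sums held 1890410 and 1867730 UMIs in pregnant libraries, against 1253152 and 993532 UMIs in non-pregnant libraries. The Egr3 values there thus rest on few UMIs. Jun was higher in pregnant L6 CT neurons by 1.36 on the log2 scale (edgeR adjusted p = 0.1498). Inhba was highest in non-pregnant library 1 in L2/3 IT neurons, at 29.5 and 31.3 CPM in pregnant libraries, against 37.2 and 28.0 CPM in non-pregnant libraries, whereas in L6 CT neurons it was lowest there, at 11.8 and 7.59 CPM, against 3.65 and 9.67 CPM. Inhba thus showed the shared order of the libraries in L2/3 IT neurons but not in L6 CT neurons. The L6 CT sum of non-pregnant library 1 held 3834993 UMIs, so its Inhba value rests on few UMIs.

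Counted per nucleus, rapid members were absent from more nuclei of non-pregnant library 2. Each excitatory nucleus was thinned to 8000 UMIs, which left 3995 and 3767 pregnant and 4320 and 4028 non-pregnant nuclei and dropped 169 and 230 pregnant and 165 and 53 non-pregnant ones. At that depth, 10.1 and 11.0% of pregnant nuclei held no UMI of any rapid member, against 8.59 and 40.9% of non-pregnant nuclei. At least 3 rapid members were found in 49.9 and 48.9% of pregnant nuclei, against 59.5 and 5.79% of non-pregnant nuclei. The mean number of rapid members per nucleus was 2.88 and 3.04 in pregnant libraries, against 3.69 and 0.885 in non-pregnant libraries, and before thinning 5.07 and 5.04, against 5.72 and 1.94. The distribution of non-pregnant library 2 was shifted down as a whole. Delayed members moved less, with a thinned mean of 2.05 and 2.15 in pregnant libraries, against 2.41 and 1.86 in non-pregnant libraries.

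**Figure D5:**
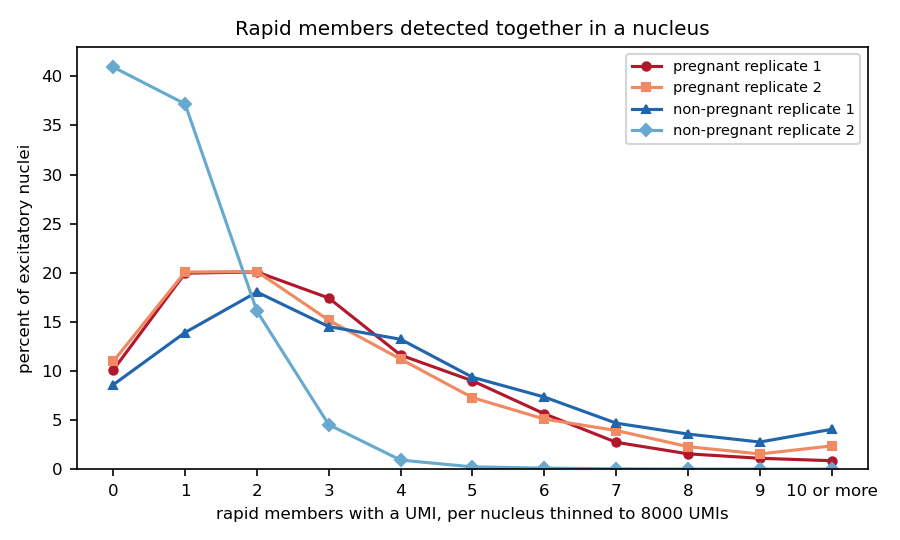
Percent of excitatory nuclei by the number of rapid members with at least 1 UMI, after thinning each nucleus to 8000 UMIs, with 1 line per library. The lines of the pregnant libraries and of non-pregnant library 1 share a broad peak, while in non-pregnant library 2 40.9% of nuclei have 0 rapid members and 5.79% have 3 or more.

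For Fos and Arc, shares of nuclei with at least 1 UMI followed the CPM. After thinning to 8000 UMIs, Fos was found in 11.2 and 11.4% of pregnant excitatory nuclei, against 16.2 and 0.546% of non-pregnant ones (Wilson 95% interval of the last value 0.361 to 0.826%), and before thinning in 21.3 and 20.2%, against 25.9 and 1.52%. Arc was found in 23.6 and 22.3% of pregnant nuclei, against 32.9 and 3.33% of non-pregnant nuclei, and before thinning in 39.0 and 36.1%, against 49.7 and 7.52%. Homer1 was found in 91.5 and 89.4% of pregnant nuclei, against 95.1 and 90.0% of non-pregnant nuclei, shares too near their ceiling to follow its CPM. Inhba was found in 11.6 and 11.7% of pregnant nuclei, against 14.6 and 15.1% of non-pregnant nuclei.

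Shares in oligodendrocytes, which should largely lack Npas4, Arc and Vgf and whose median depth was 3632 UMIs, were set beside those of excitatory neurons by thinning every nucleus to 2500 UMIs. Npas4 was then found in 5.58 and 5.57% of pregnant excitatory nuclei, against 7.34 and 0.760% of non-pregnant ones, and in 0.475 and 0% of pregnant oligodendrocytes, against 0.240 and 0% of non-pregnant ones. With no UMI in 371 pregnant and 433 non-pregnant oligodendrocytes, Npas4 shares of up to 0.809 and 0.693% are allowed there. Arc was in 9.26 and 9.25% of pregnant excitatory nuclei, against 1.05% of those of non-pregnant library 2, and in 3.33 and 6.20% of pregnant oligodendrocytes, against 5.53 and 3.002% of non-pregnant ones. In non-pregnant library 2 the Arc share of excitatory nuclei was thus below that of oligodendrocytes, and it is not read as expression. Thinning deeper nuclei dilutes free RNA more, so the oligodendrocyte share need not be the level of free RNA in excitatory nuclei, which was not tested. Fos there was in 0.123% of excitatory nuclei and in 1 of 433 oligodendrocytes, too few to set a level, while in non-pregnant library 1 the shares were 6.27 and 1.68%. Vgf was in 3.56 and 3.69% of pregnant excitatory nuclei, against 4.58 and 2.28% of non-pregnant ones, and in 5.94 and 6.74% of pregnant oligodendrocytes, against 4.33 and 2.08% of non-pregnant ones, so that its shares in excitatory nuclei were near or below those of oligodendrocytes in every library. Homer1 shares were far higher in excitatory nuclei, at 59.8 and 56.4% of pregnant excitatory nuclei, against 72.2 and 55.3% of non-pregnant ones, beside 9.01 to 14.6% of oligodendrocytes.

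Rapid members tended to be found in the same nuclei. Among excitatory nuclei with a Fos UMI after thinning to 8000 UMIs (447 and 431 in pregnant libraries, against 700 and 22 in non-pregnant libraries), Npas4 was found in 29.3 and 27.6% of pregnant nuclei, against 32.9 and 0% of non-pregnant nuclei. Among nuclei without one it was found in 12.3 and 11.9% of pregnant nuclei, against 15.3 and 3.10% of non-pregnant nuclei. In L2/3 IT neurons alone Npas4 was in 42.7 and 36.9% of pregnant Fos-positive nuclei, against 40.1% of those of non-pregnant library 1, and in 11.3 and 11.0% of pregnant Fos-negative nuclei, against 14.3% of those of non-pregnant library 1. Among all excitatory nuclei the value of 0% rests on 22 nuclei and allows a share of up to 13.6%. Arc was found in 38.3 and 39.4% of pregnant Fos-positive nuclei, against 49.9 and 0% of non-pregnant ones, and in 21.8 and 20.1% of pregnant Fos-negative nuclei, against 29.7 and 3.35% of non-pregnant ones. Outside non-pregnant library 2, with its 22 Fos-positive nuclei, most delayed members compared had lower ratios of Fos-positive over Fos-negative share than rapid ones. Vgf had 1.35 and 1.25 in pregnant libraries, against 1.02 in non-pregnant library 1. Plk2 had 1.18 and 1.16, against 1.13, and Inhba 1.30 and 1.03, against 1.09. Homer1, near its ceiling, had 1.05 and 1.06, against 1.03. Only Bdnf and, in pregnant library 1, Vgf exceeded Nr4a1 there, the lowest of the rapid members compared. The share of nuclei with Bdnf in Fos-positive over Fos-negative nuclei was 1.33 and 1.76 in pregnant libraries, against 1.46 in non-pregnant library 1, while that of the rapid member Nr4a1 was 1.31 and 1.39 in pregnant libraries, against 1.32 in non-pregnant library 1. Inhba was in 14.5 and 12.1% of pregnant Fos-positive nuclei, against 15.7 and 22.7% of non-pregnant ones, and in 11.2 and 11.7% of pregnant Fos-negative nuclei, against 14.4 and 15.1% of non-pregnant ones. Nuclei of a library share its preparation, and no test was made over nuclei.

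Genes of the same pathway outside the 36 were followed as lists. The 21 upstream regulators, such as the kinase gene Camk2a and Creb1, which encodes CREB, summed to 4768 and 4795 CPM in pregnant excitatory neurons, against 4807 and 4942 CPM in non-pregnant ones. Their ratio between the non-pregnant libraries had a median of 0.996, and 0 of 21 reached 2-fold, against 1.45% of genes higher and 1.3% lower in library 1. Of 22 other rapid genes with enough UMIs 12 were at least 2-fold higher in non-pregnant library 1 than in library 2. Of 10 other delayed genes 5 were, against 1.45% of all genes. In the pregnant contrast edgeR called 0 genes of these lists in any of the 3 sums. At an unadjusted p below 0.05 in excitatory neurons it had 4 of 21 upstream regulators, 0 of 22 other rapid genes and 1 of 10 other delayed genes, Sorcs3 (log2 fold change −0.32, edgeR adjusted p = 0.113), against 13.8% of all genes. DESeq2 called Camk2a and Sorcs3 there, both lower in pregnant mice, against 3.42% of all genes called. For Camk2a edgeR gave −0.28 (edgeR adjusted p = 0.138). The heat shock genes, a list for stress during preparation, summed to 212 and 249 CPM in pregnant excitatory neurons, against 220 and 140 CPM in non-pregnant ones. Of these, 1 of 8 was at least 2-fold higher in non-pregnant library 1 than in library 2, against 1.45% of all genes. Heat shock genes were thus also lowest in non-pregnant library 2, by a smaller ratio of 1.57, and their part in the members' difference was not tested.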

How the data were processed

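The deposited files are gene-by-barcode matrices of UMI counts, 1 per library, made by the authors with Cell Ranger 10.0.0 on GRCm39, per the submitters' processing notes, with no normalization in the deposited counts. Barcodes with under 500 genes or over 5% mitochondrial UMIs were dropped, then the 5% of nuclei in each library most like 2 simulated doublets per nucleus (60 neighbours), leaving 25033 of 26816 barcodes. Nuclei were clustered on 2000 variable genes, 40 principal components and 20 neighbours (scikit-learn 1.9.0, leidenalg 0.10.2 at resolution 1). The 36 members, the other rapid, other delayed and heat shock genes and mitochondrial genes were left out of the variable genes. Clusters were named by marker lists, with thresholds set after clusters were seen. UMIs were summed per library and cell class, and groups were compared with edgeR 4.0.16 in R 4.3.3 (TMM scaling, filterByExpr with a minimum count of 10, robust quasi-likelihood test, Benjamini-Hochberg adjustment over all genes of a sum), after the scripts were checked on simulated data. Standard errors of edgeR fold changes were derived from the test, as the absolute log2 fold change over the square root of the F statistic. DESeq2 1.42.0, other scalings, filters, nuclei and clusters, a replicate block and leaving out each library were alternatives. Types needed 50 nuclei per library.

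Ratios between libraries have exact binomial 95% intervals and shares have Wilson 95% intervals, which cover counting error only. A share of 0 allows up to 3 nuclei. The members and lists were chosen with earlier results of these data known. The rule for named genes asked for the values of every member called, of Fos, Arc, Npas4, Nr4a1, Egr1, Junb, Bdnf, Homer1, Nptx2 and Vgf, of the 3 members with the highest and the 3 with the lowest mean CPM, and of those at least 1.5-fold apart between the non-pregnant libraries with 100 UMIs in each, and for up to 4 called genes of each other list; values of all 36 are given. Members named in single cell types were taken by smallest adjusted p after their values were seen.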

Additional observations from a re-analysis of the deposited data

Results flagged for a closer look

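Groups of 2 libraries allow no test for a library that stands apart from its group. For 3 members, all 4 libraries placed the groups in opposite order in different cell types, and the difference between types was not tested. That is 3 of the 34 members tested in at least 2 of these classes or types (8.82%), against 54.3% of the 17805 genes so tested. The log2 fold changes below are pregnant over non-pregnant, and none passed the edgeR threshold. Dusp6, a phosphatase of MAP kinases, was higher in pregnant Vip neurons (1.08) and oligodendrocytes (0.74) and lower in pregnant astrocytes (−1.22) and in the cluster named from the microglia list (−0.43). That cluster had 44.1 and 57.2 CPM of Dusp6 in pregnant libraries, against 60.9 and 74.3 CPM in non-pregnant libraries. Vip neurons had 21.0 and 20.2 CPM of Dusp6 in pregnant libraries, against 17.8 and 1.73 CPM in non-pregnant libraries. The Vip sums held 810318 and 992485 UMIs in pregnant libraries, against 1066769 and 1154588 UMIs in non-pregnant libraries. Dusp6 in Vip neurons thus rests on few UMIs, and non-pregnant library 1 lay close to the pregnant libraries. Scg2, secretogranin II, was higher in pregnant Vip neurons (0.49), astrocytes (0.62) and the microglia-list cluster (0.67) and lower in pregnant L5/6 NP neurons (−0.50). Homer1 was higher in pregnant oligodendrocytes (0.20) and the microglia-list cluster (0.22) and lower in pregnant OPC (−0.24). In oligodendrocytes it had 60.9 and 59.0 CPM in pregnant libraries, against 53.8 and 46.9 CPM in non-pregnant libraries. The level of these glial values beside free RNA from neurons was not tested.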

How the results depend on the processing

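For all nuclei and excitatory neurons, the share over all genes is given in this section only for the 4-library edgeR fit and for DESeq2. Shares for some fits that left out 1 library are given above. Counts in the other settings are not read against it. Of 36 members the count called in all nuclei was 0 in that edgeR fit, against 1.19% of genes, and 2 with DESeq2, against 2.64%. It was 1 with RLE scaling, 2 with no filter, 2 with the replicate block, 1 with no doublet filter and 1 without the clusters limited to pregnant libraries. In excitatory neurons it was 0, against 1.93% of genes, and 1, Inhba, with DESeq2, against 3.42%. With RLE scaling, no filter, the replicate block and thinning it was also 1, always Inhba. Over 15 cell types it was 0, and 9 of 526 tests with no filter, against 0.996% of gene tests, 2 of 321 with the replicate block, against 0.992%, 1 of 324 with no doublet filter, against 0.572%, 1 of 177 after thinning, against 0.312%, and 1 of 273 at Leiden resolution 2, against 0.799%. Inhibitory neurons kept 0 calls in all 9 alternatives that kept every library. Leaving out 1 library each time, the count ran from 0 to 32 in all nuclei, 0 to 31 in excitatory neurons, 0 to 18 in inhibitory neurons and 0 to 168 over types. The median log2 fold change ran from −0.39 to 2.08 over rapid and from −0.52 to 0.81 over delayed members. By gene it ran from −0.56 to 4.55 for Fos, −0.78 to 3.25 for Arc, −0.61 to 2.51 for Npas4, −0.38 to 0.97 for Nr4a1, −0.31 to 3.23 for Egr1, −0.057 to 2.90 for Junb, −0.36 to 1.23 for Bdnf, −0.56 to 0.42 for Homer1, −0.95 to 0.86 for Nptx2, −0.24 to 0.81 for Vgf, 0.14 to 1.02 for Jun, −0.59 to −0.36 for Inhba and, in all nuclei, 0.80 to 1.09 for Klf2. The cause was not tested. The labels do not say what the replicate numbers mean. Same-numbered libraries did not deviate together (r = −0.023 over 18532 genes), but this correlation cannot settle whether they were paired. Under the block the medians were 0.73 over rapid and −0.036 over delayed members. With 2 libraries per group, 1 library sets the spread of most members, a depth of 3632 UMIs limits shares in oligodendrocytes, and members under 1 CPM rest on few UMIs.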

Other observations

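Endothelial nuclei, which line blood vessels and use Klf2 and Klf4 in response to blood flow, were few, with 51 and 38 nuclei in pregnant libraries, against 17 and 21 in non-pregnant libraries. Klf2 there had 490 and 620 CPM in pregnant libraries, against 923 and 213 CPM in non-pregnant libraries, and Klf4 had 154 and 220 CPM, against 325 and 91.4 CPM. The rapid members of endothelial nuclei summed to 1445 and 1866 CPM in pregnant libraries, against 2633 and 799 CPM in non-pregnant libraries, the same order of libraries as in neurons.

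Some of the other rapid genes, outside the 36, shared the order of the rapid members in excitatory neurons and were picked after their values were seen. Ccn1, a secreted matrix protein gene induced by growth signals, had 7.20 and 6.70 CPM in pregnant libraries, against 8.84 and 0.113 CPM in non-pregnant libraries. Tiparp, which encodes a poly(ADP-ribose) polymerase, had 29.0 and 43.2 CPM in pregnant libraries, against 74.4 and 8.58 CPM in non-pregnant libraries. Of the 50 genes with the highest ratio between the non-pregnant libraries, 20 were in none of the lists.

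Clock genes were also looked up after the data were seen. Per1, a clock gene that light and activity also induce, had 38.0 and 37.0 CPM in pregnant excitatory neurons, against 50.8 and 17.05 CPM in non-pregnant ones. Dbp, a clock output gene, had 12.2 and 14.9 CPM in pregnant libraries, against 16.2 and 18.4 CPM in non-pregnant libraries. Nr1d1, a clock repressor, had 7.42 and 9.54 CPM in pregnant libraries, against 10.6 and 11.0 CPM in non-pregnant libraries, so that non-pregnant library 2 was highest for Dbp and Nr1d1. It was lowest for the other 5 of the 7 looked up, Per1, Per2, Ciart, Cry1 and Nr1d2. Per2 had 45.8 and 39.2 CPM in pregnant libraries, against 55.2 and 34.5 CPM in non-pregnant libraries, and Ciart had 17.6 and 18.2 CPM, against 30.5 and 13.53 CPM. Cry1 had 27.5 and 25.3 CPM in pregnant libraries, against 28.1 and 21.6 CPM in non-pregnant libraries, and Nr1d2 had 52.2 and 54.9 CPM, against 51.0 and 50.4 CPM. No test was run on these genes.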
